A study of Bos taurus with 27 samples.

Results

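The genes described here are 8 enzymes with which the rumen epithelium (RE) turns butyrate and acetate into ketone bodies or activates short-chain acids to acyl-CoA, namely *BDH1*, *BDH2*, *ACAT1*, *OXCT1*, *ACSS1*, *ACSS2*, *ACSS3* and *ACSM3*. They were chosen by name: a non-control probe counted when its gene name on the array was one of these symbols. All 8 were found, with 1 probe each, among 14952 gene names and 15008 probes. Biopsies of the RE came from 9 Japanese Black cattle, each sampled at 14 months of age (early fattening stage), 21 months (middle) and 29 months (late). All were castrated and carried a rumen fistula, and all received a concentrate and forage diet with more concentrate from the middle stage on. Neither age nor fattening stage nor diet can be told apart from the others in this design, and no cattle were held on 1 diet as a control. RNA of each biopsy was hybridized to 1 one-color array of 60-base probes, which gave 27 arrays, 9 at each stage. A level below is the log2 intensity of a probe relative to the median of its array, and a change is the difference of mean levels within animals. The first period is the middle against the early stage, the second period the late against the middle stage, and the total period the late against the early stage.

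Ruminants absorb most of their energy as acetate, propionate and butyrate across the RE, a stratified squamous epithelium. Butyrate is first activated to butyryl-CoA, then oxidized to acetoacetyl-CoA and acetyl-CoA, converted to acetoacetate and reduced to beta-hydroxybutyrate, which leaves for the blood. The RE is known as a main site of ketone body formation in fed ruminants.

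The probes carry the identity of each measurement, and 2 of them are shown, 1 of a gene whose middle level differed between slides and 1 that stayed at background. Each has 1 reading frame without a stop codon and a GC content of 45%. The *ACAT1* probe was paired through its transcript identifier with the RefSeq gene table. The *ACSM3* probe carries an Ensembl identifier that the table did not pair, so its target rests on the name given by the array design. Sequences are written 5′ to 3′ as in the array design, in lower case throughout.
ACAT1: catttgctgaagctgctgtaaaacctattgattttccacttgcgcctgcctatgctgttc
ACSM3: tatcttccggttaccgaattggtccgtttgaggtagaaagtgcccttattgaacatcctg
Of the 8 probes, 6 were paired by transcript with the table and gave the same symbol as the array. The *BDH2* probe was designed on an expressed sequence tag and, like that of *ACSM3*, was named by the array design alone. Genome positions are not given, since no genome of the design's build was used here.

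Before the stages are compared, the arrays themselves differed. The median processed signal was 35.2 to 48.6 on the early arrays and 32.2 to 47.0 on the late arrays, but 8.22 to 28.7 on the middle arrays. The middle arrays also had fewer probes called well above background, 48.5% to 71.5% against 68.8% to 78.1% early and 68.4% to 73.7% late. The early arrays of cattle 1 to 8 lay on slide 1, the early array of animal 9 and the middle arrays of cattle 1 to 7 on slide 2, the middle arrays of cattle 8 and 9 on slide 3, and the late arrays on slides 4 and 5. Slides 1 and 2 were scanned on the same day. The late stage shared no slide or scan day with another stage, so that slide and stage cannot be told apart there. No animal had early and middle arrays on the same slide, so within animals the first period also compares slides, including on scan day 1. Slide 2 by itself was fitted without an animal block. It sets the early array of animal 9 against the middle arrays of cattle 1 to 7. The median change of all 15008 probes was 0.33 in the first, −0.28 in the second and 0.03 in the total period. It depended on brightness: the 2040 probes never well above background had median changes of 1.33 and −1.39 in these periods, and 97.7% of them were called higher and then 97.8% lower. The 6797 probes that were well above it on each of 27 arrays had medians of 0.08 and 0.09. Of 15 stratified epithelium markers, 13 were among these, although an extraction note in the labels names liver and neutrophils. Of 9 hepatocyte markers, *ALB*, *FGA* and *FGG* were well above background on 0 arrays and *FGB*, *TF* and *SERPINA1* on 1 to 3, while *APOA2* was on 27, *APOA1* on 26 and *TTR* on 23. Hepatocyte markers called higher numbered 6 and lower 0 in the first period, then 0 and 7, and what they reflect was not tested.

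A probe with an adjusted *P* below 0.05 (limma with the animal as a block, Benjamini-Hochberg over all probes) is called a differentially expressed gene (DEG). In the first period 2 of the 8 genes were DEGs upwards (*OXCT1* and *ACSM3*), where 45.3% of all probes were, and 3 downwards (*BDH1*, *ACAT1* and *ACSS2*), where 21.2% of all probes were. In the second period 4 were upregulated (*BDH1*, *ACAT1*, *ACSS2* and *ACSS3*) against 26.7% of all probes, and 4 downregulated (*BDH2*, *OXCT1*, *ACSS1* and *ACSM3*) against 44.8%. In the total period 0 were upregulated against 11.0% of all probes, and 1 was downregulated (*BDH2*) against 9.01%. For that count of 0, limma gave 0 members higher at an unadjusted *P* below 0.05, and the methods' t-test called 0 higher after adjustment. Without the 3 dimmest middle arrays, a removal chosen after seeing the data, 1 was called higher (*ACSS2*, adjusted *P* = 0.0152, limma). The median change of the 8 genes was −0.15, 0.01 and 0.10 in the 3 comparisons. Both periods use the same middle arrays, so that a fall followed by a rise of the same gene is not 2 independent results.

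**Figure D1:**
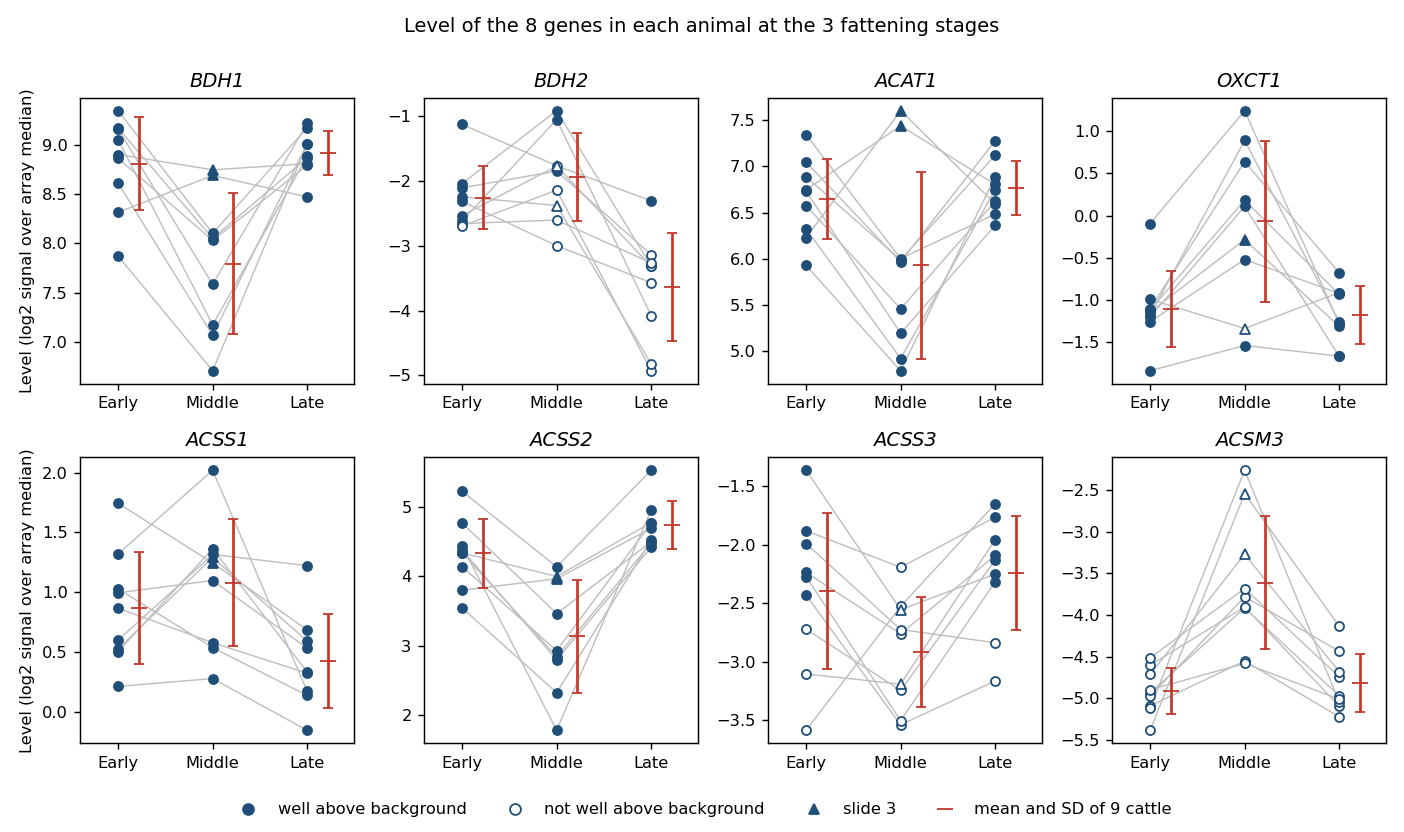
Level of each gene (y axis, log2 intensity relative to the array median; the scale differs between panels) at the 3 stages, with grey lines joining the arrays of 1 animal, open points for spots not well above background, triangles for slide 3, and the mean ± SD of 9 cattle in red. *BDH1*, *ACAT1* and *ACSS2* dipped at the middle stage in the cattle on slide 2, while both slide 3 arrays of *ACAT1* lay above all 7 others of that stage.

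**Figure D2:**
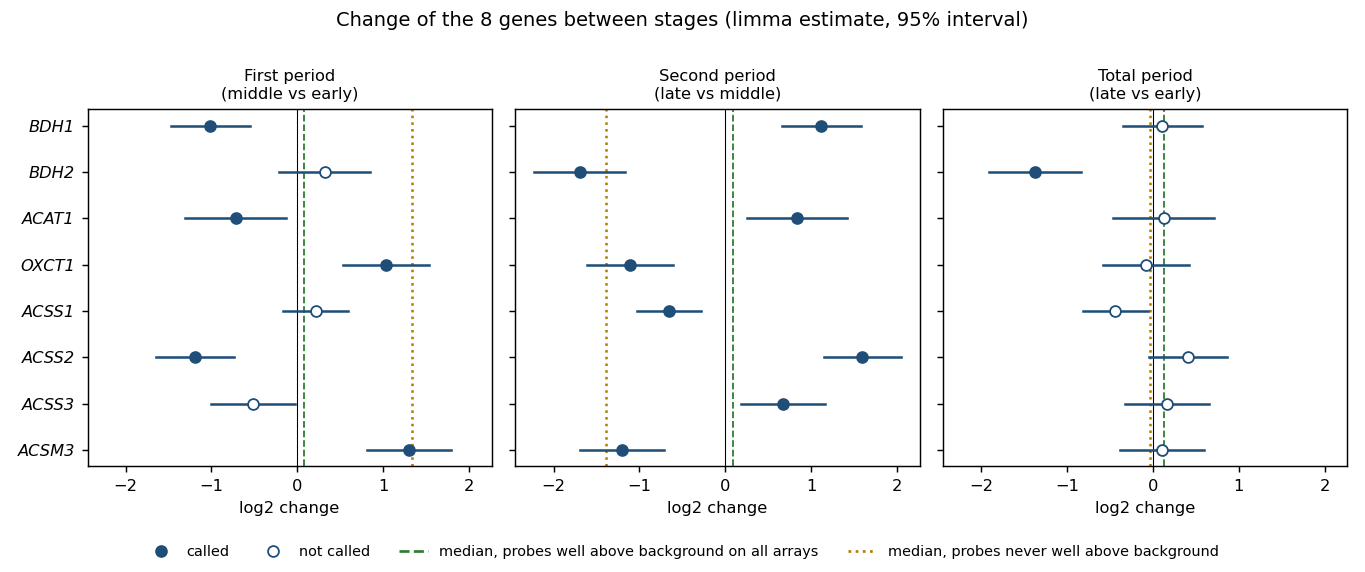
Change of each gene between stages (x axis, log2; points are limma estimates and lines 95% intervals; filled points are DEGs), with the median change of probes always and never well above background as dashed and dotted lines. *ACSM3* lay beside the dotted line in all 3 comparisons, and in the total period *BDH2* was the DEG.

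*ACAT1* encodes the mitochondrial thiolase that interconverts acetyl-CoA and acetoacetyl-CoA. Its level was 5.93 to 7.34 early (median 6.73), 4.79 to 7.60 at the middle stage (median 5.97) and 6.36 to 7.28 late (median 6.75). The ranges of all 3 stages overlapped, and the middle stage was the widest. *ACAT1* was downregulated 1.64-fold in the first period (log2 change −0.72 ± 0.28 SE, adjusted *P* = 0.0304, limma), lower in 7 and higher in 2 cattle. It was upregulated 1.79-fold in the second period (0.84 ± 0.28, adjusted *P* = 0.0118), and in the total period its change was 0.12 (adjusted *P* = 0.826). The 2 cattle that went against the others were numbers 8 and 9, whose middle arrays lay on slide 3: their levels there were 7.44 and 7.60, against 4.79 to 6.00 on slide 2. Within scan day 1, without those arrays, the first-period change was −1.22 (adjusted *P* = 0.00036). Within slide 2, with 1 early array, it was −0.75 (adjusted *P* = 0.449), and with slide as a random block the changes were −0.37 for the first (adjusted *P* = 0.387) and 0.42 for the second period (adjusted *P* = 0.378). The first-period call was also lost without any 1 of cattle 1 to 7 (changes of −0.69 to −0.61, adjusted *P* = 0.0537 to 0.0861), but not without animal 8 (adjusted *P* = 0.00994) or 9 (adjusted *P* = 0.00177).

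*BDH1* encodes the dehydrogenase of the inner mitochondrial membrane that reduces acetoacetate to beta-hydroxybutyrate, the last step of ketone body synthesis. Its level was 7.87 to 9.34 early (median 8.90), 6.71 to 8.74 at the middle stage (median 8.03) and 8.47 to 9.21 late (median 8.88). The middle levels reached below those of both other stages, with overlap. *BDH1* was downregulated 2.02-fold in the first period (log2 change −1.01 ± 0.22 SE, adjusted *P* = 0.000582, limma) in 8 of 9 cattle. It was upregulated 2.17-fold in the second period (1.12 ± 0.22, adjusted *P* = 0.000174), again in 8 of 9. Late and early levels differed by 0.11 (95% interval −0.36 to 0.57). Animal 9 was the exception in both periods. The middle arrays of slide 3 stood at 8.69 and 8.74, above the 6.71 to 8.10 of slide 2. Within scan day 1 the first-period change was −1.33 (adjusted *P* = 0.000467), within slide 2 −0.78 (adjusted *P* = 0.450), and with slide as a random block −0.80 (adjusted *P* = 0.0353).

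*OXCT1* encodes the mitochondrial transferase that activates acetoacetate with CoA from succinyl-CoA, the step by which ketone bodies are used rather than made. Its probe was dim but well above background on 26 of 27 arrays, the exception being the middle array of animal 9. Levels were −1.84 to −0.09 early (median −1.14), −1.54 to 1.24 at the middle stage (median 0.11) and −1.67 to −0.68 late (median −1.26). Most middle levels stood above the other stages, but the lowest did not. *OXCT1* was upregulated 2.05-fold in the first period (log2 change 1.03 ± 0.24 SE, adjusted *P* = 0.000995, limma) in 8 of 9 cattle and downregulated 2.16-fold in the second (−1.11 ± 0.24, adjusted *P* = 0.000405) in 8 of 9. The total change was −0.08 (95% interval −0.58 to 0.42). Within scan day 1 its first-period change was 1.26 (adjusted *P* = 0.00174) and within slide 2 1.14 (adjusted *P* = 0.464). With slide as a random block, 0.83 and −0.83 remained in the 2 periods (adjusted *P* = 0.0616 and 0.0875, limma). With slide as a fixed block the first-period change was 0.01 ± 0.86 SE, too wide to tell a change of 1.03 from 0. Smooth muscle markers moved the same way as *OXCT1*: 5 of 8 were higher and 0 lower in the first period, 0 higher and 7 lower in the second, and their mean level ran from 0.025 to 2.00 early, 0.18 to 2.74 at the middle stage and −0.096 to 0.90 late. Among them *MYH11* had mean levels of −2.24, −0.35 and −2.34, *CNN1* −1.83, −1.78 and −2.64 and *TAGLN* 1.60, 1.77 and 1.07. *MYH11* was well above background on 21 arrays, *CNN1* on 16, *LMOD1* on 14 and *DES* on 10. Hepatocyte markers went the same way (6 of 9 higher and 0 lower, then 0 and 7). Red blood cell markers did too (3 of 5 higher and 0 lower, then 0 and 2). So did probes never well above background, with median changes of 1.33 and −1.39. Of 15 epithelium markers, 2 were higher and 8 lower in the first period and 6 higher and 2 lower in the second. The part of these cell types in the changes of the 8 genes was not tested, and in a biopsy fewer cells of a type and less RNA per cell cannot be told apart.

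*BDH2* encodes a cytosolic short-chain dehydrogenase of a different branch of the family, first described as acting on beta-hydroxybutyrate and also linked to siderophore formation. Its probe was near background: well above it on 8 early, 3 middle and 1 late array. Levels were −2.70 to −1.13 early (median −2.32), −3.00 to −0.92 at the middle stage (median −1.85) and −4.93 to −2.31 late (median −3.32). Late levels lay mostly below both other stages. Late *BDH2* levels were below the early ones in 9 of 9 cattle (log2 change −1.38 ± 0.26 SE, adjusted *P* = 0.000853, limma) and below the middle ones in 9 of 9 (−1.70 ± 0.26, adjusted *P* = 1.15e-05). The first-period change of 0.32 (95% interval −0.22 to 0.85) was no DEG in the main fit. *BDH2* was called higher in that period with normexp background correction (0.245, adjusted *P* = 0.00378, limma). The same held without the 3 dimmest middle arrays (0.647, adjusted *P* = 0.0432, limma). Its first-period change was below 0 with quantile normalization (−0.125), with a fixed slide effect (−0.653) and on slide 2 alone (−0.776). With 8 of 9 late arrays not well above background, the size of the fall is not measured and no fold is given. Probes never well above background had a median second-period change of −1.39, and 97.8% of them were called lower. In the total period their median was −0.03, and 2.89% were called lower. *BDH2* belongs to the probes well above background on some arrays. These had medians of −0.35 in the second and −0.07 in the total period, and 42.8% and 12.2% of them were called lower. With normexp background correction the second-period change was −0.37 (adjusted *P* = 8.45e-05) and the total change −0.12 (adjusted *P* = 0.255), and with slide as a random block the total change was −1.31 (adjusted *P* = 0.212).

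*ACSS2* encodes the acetyl-CoA synthetase of cytosol and nucleus, which makes acetyl-CoA for lipid synthesis and acetylation. Levels were 3.55 to 5.23 early (median 4.34), 1.78 to 4.14 at the middle stage (median 2.93) and 4.42 to 5.53 late (median 4.69). Middle and late levels did not overlap, as for 10.2% of all probes with higher late levels. In the other 7 genes the stages overlapped in each comparison. *ACSS2* was downregulated 2.29-fold in the first period (log2 change −1.19 ± 0.22 SE, adjusted *P* = 0.000113, limma) in 8 of 9 cattle. It was upregulated 3.03-fold in the second period (1.60 ± 0.22, adjusted *P* = 3.45e-06) in 9 of 9. The total change was 0.41 (adjusted *P* = 0.203), higher in 8 of 9 cattle. Without the 3 dimmest middle arrays the same change was called (adjusted *P* = 0.0152, limma). Both calls were kept with slide as a random block (−0.94, adjusted *P* = 0.0172, and 1.37, adjusted *P* = 0.00293) and the first within scan day 1 (−1.51, adjusted *P* = 0.000691), but not within slide 2 (−0.90, adjusted *P* = 0.488).

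*ACSS1* encodes the mitochondrial acetyl-CoA synthetase, which feeds acetate into the tricarboxylic acid cycle. Levels were 0.21 to 1.74 early (median 0.87), 0.28 to 2.02 at the middle stage (median 1.25) and −0.16 to 1.22 late (median 0.33), overlapping throughout. *ACSS1* did not pass the test in the first period (log2 change 0.21, 95% interval −0.16 to 0.59). It was downregulated 1.57-fold in the second period (−0.65 ± 0.18 SE, adjusted *P* = 0.00322, limma) in 9 of 9 cattle. The total change was −0.44 (adjusted *P* = 0.0945), lower in 7 of 9, and without animal 2 it was −0.57 (adjusted *P* = 0.0358). The second-period call was lost with normexp background correction (−0.18, adjusted *P* = 0.147) and with slide as a random block (−0.60, adjusted *P* = 0.119).

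*ACSS3* encodes a mitochondrial synthetase that prefers propionate. It was well above background on 6 early, 0 middle and 7 late arrays, so that the middle stage gives only a bound. Levels were −3.59 to −1.36 early, −3.54 to −2.19 at the middle stage and −3.17 to −1.65 late, with overlap. No fold is given, because the lowest signal well above background on the middle arrays was above the *ACSS3* mean of the other stages. limma called it higher in the second period (adjusted *P* = 0.0146) and not in the first (adjusted *P* = 0.0582, or 0.0045 without animal 1). With normexp both directions turned, and *ACSS3* was called higher in the first and lower in the second period. The second-period call was lost with 75th percentile scaling (adjusted *P* = 0.0663), the deposited log2 values (0.066), slide as a random block (0.169) and without the 3 dimmest middle arrays (0.0667), and the first period was called with quantile normalization (−1.29, adjusted *P* = 0.00126).

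*ACSM3* encodes a mitochondrial medium-chain acyl-CoA synthetase that accepts butyrate, and was well above background on 0 of 27 arrays. Its levels of −5.38 to −4.51 early, −4.58 to −2.26 at the middle stage and −5.22 to −4.13 late are therefore background readings. limma called it higher in the first (9 of 9 cattle, adjusted *P* = 0.000101) and lower in the second period (9 of 9, adjusted *P* = 0.000152). The 3 highest middle readings, −2.26, −2.54 and −3.27, came from cattle 4, 9 and 8, the 3 arrays with under 60% of probes well above background. Its first-period change of 1.30 stood beside the 1.33 of all probes never well above background, and no fold is given for it.

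Related enzymes were compared within each animal, since a constant that scales an array cancels in a difference of changes. The background correction and quantile normalization do not cancel. The test, which takes no account of slide, was an exact two-sided sign flip over 9 cattle, whose smallest possible *P* is 0.0039, adjusted over 12 tests (4 pairs in 3 comparisons). *ACSS1* and *ACSS2*, the mitochondrial and the cytosolic acetate enzyme, moved apart in each comparison. The *ACSS1* change exceeded that of *ACSS2* by 1.41 ± 0.95 (SD, n = 9) in the first period (8 of 9 cattle, exact adjusted *P* = 0.0188). It was below that of *ACSS2* by 2.25 ± 1.00 in the second period (mean difference −2.25, 9 of 9 cattle, exact adjusted *P* = 0.0117) and by a mean of −0.85 ± 0.87 in the total period (8 of 9 cattle, exact adjusted *P* = 0.0293). The first-period difference of the fitted *ACSS1* and *ACSS2* changes was 1.75 within scan day 1, but 0.19 within slide 2 and 0.17 with slide as a fixed block. In the fixed-block fit the *ACSS1* and *ACSS2* changes had SEs of 0.73 and 0.71. Values within slide 2, here and for the next pair, are not differences within animals. With slide as a random block the difference of *ACSS1* and *ACSS2* was 0.98 in the first, −1.97 in the second and −0.99 in the total period. *BDH1* and *BDH2* also differed, by −1.33 ± 1.22 in the first (exact adjusted *P* = 0.0293), 2.81 ± 1.07 in the second and 1.48 ± 0.54 in the total period (both 9 of 9 cattle, exact adjusted *P* = 0.0117), but most *BDH2* readings after the early stage were near background, and within slide 2 the first-period difference was −0.0071. Pairs with *ACSS3* are not read here, since it was well above background on 0 middle arrays.

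**Figure D3:**
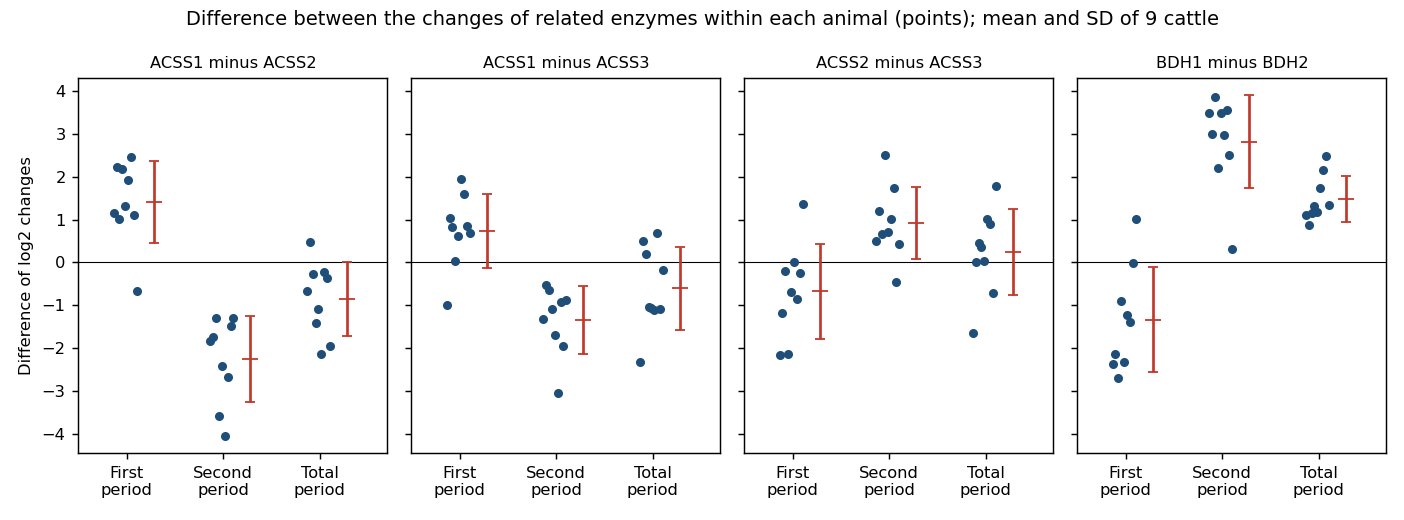
Difference between the log2 changes of 2 related enzymes (y axis) in each comparison, 1 point per animal, with the mean ± SD of 9 cattle in red. All 9 points of *ACSS1* minus *ACSS2* were below 0 in the second period, and all 9 of *BDH1* minus *BDH2* above 0 in the second and total periods.

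Over the 27 arrays, as deviations from the mean of each animal, the levels of *BDH1*, *ACAT1* and *ACSS2* ran together, with Pearson's r of 0.923 for *BDH1* and *ACAT1*, 0.916 for *BDH1* and *ACSS2* and 0.821 for *ACAT1* and *ACSS2*. *ACSS1* ran against all 3, with r of −0.555, −0.518 and −0.586 for *BDH1*, *ACAT1* and *ACSS2*. Among 6764 probes well above background and present throughout, the levels nearest to *BDH1* were those of *HADH* (r = 0.961), the short-chain 3-hydroxyacyl-CoA dehydrogenase of beta-oxidation, and *BSG* (0.960), the partner protein of monocarboxylate carriers. *ACAT1* was nearest to *HADH* (0.923) and *BDH1* (0.923), *ACSS1* to *PLEKHO2* (0.950) and *PTPN18* (0.949), and *ACSS2* to *RNF5* (0.984) and *WDR45* (0.982). The points share stage, slide and brightness of the array, and these values are descriptions without a test.

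The other genes of the pathway were read from the same fit. Of 39 listed, 35 were on the array. In the first period 11 were upregulated and 16 downregulated, in the second 17 and 8, and in the total period 4 and 4, with median changes of −0.16, 0.29 and 0.07. Of all probes, 45.3% were called higher and 21.2% lower, then 26.7% and 44.8%, and 11.0% and 9.01% in the total period. Of probes well above background on all arrays, 34.9% were higher and 26.9% lower, then 37.4% and 30.7%, and 17.6% and 7.99%. The counts of each list below stand beside these shares. When slide was a fixed block, 1 of them was a DEG in the first period, and on slide 2 alone 0 were (limma; 4 and 6 at an unadjusted *P* below 0.05).

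Of 5 other ketone body genes, 4 were called higher (*OXCT2*, *HMGCLL1*, *HMGCS1* and 1 more) and 1 lower in the first period. In the second, 0 were higher and 2 lower (limma, with 0 higher at an unadjusted *P* below 0.05). Those 2, *OXCT2*, a paralog of *OXCT1* known from testis, and *HMGCLL1*, an extramitochondrial lyase, were dim. *OXCT2* was well above background on 4 early, 2 middle and 0 late arrays and *HMGCLL1* on 2, 1 and 0, so that no fold is given for them. *HMGCS1* and the remaining gene called higher in the first period were well above background on all arrays. *HMGCS1* rose by 0.73 on the log2 scale (adjusted *P* = 0.00725, limma), in 9 of 9 cattle.

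The butyrate beta-oxidation genes were each well above background on 27 of 27 arrays, and most went the same way as *BDH1*: 6 of 8 were downregulated and 1 upregulated in the first period, and 7 of 8 upregulated and 0 downregulated in the second (median changes −0.67 and 0.66). *ECHS1*, the short-chain enoyl-CoA hydratase, fell 4.99-fold in the first period (log2 change −2.32 ± 0.12 SE, adjusted *P* = 1.65e-10, limma) and rose 3.87-fold in the second (1.95, adjusted *P* = 2.69e-10), with no overlap of the middle stage with either other stage. It stayed 1.29-fold lower late than early (−0.37, adjusted *P* = 0.0382). Of the 8 genes, 1 was called lower and 2 higher in the total period. Those higher were *HADHA* (0.47, adjusted *P* = 0.0117, limma) and *HADHB* (0.41, adjusted *P* = 0.0161). The electron carriers from acyl-CoA dehydrogenases to the respiratory chain, *ETFDH* and *ETFA*, fell by 1.25 and 1.01 on the log2 scale (adjusted *P* = 4.66e-06 and 8.45e-06, limma), each in 9 of 9 cattle, while *ETFB*, which pairs with *ETFA*, was the gene called higher (0.46, adjusted *P* = 0.0205, 7 of 9 cattle). *ETFDH* rose by 1.19 in the second period (adjusted *P* = 4.07e-06) and *HADHB*, the thiolase subunit of the trifunctional protein, by 0.95 (adjusted *P* = 9.94e-07).

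Among other acyl-CoA synthetases, thioesterases and transferases, 2 of 7 rose and 2 fell in the first period, and 2 and 2 did the reverse in the second. Of the 4 well above background on 27 of 27 arrays, 2 fell: *ACSF2*, a medium-chain acyl-CoA synthetase, 3.26-fold (log2 change −1.70 ± 0.18 SE, adjusted *P* = 5.77e-07, limma) and *CRAT*, the carnitine acetyltransferase, 2.87-fold (−1.52 ± 0.22, adjusted *P* = 1.41e-05), each in 9 of 9 cattle. The other 2, *ACSF3* and *ACOT8*, changed by 0.22 and 0.06 and were no DEGs. *ACSF2* and *CRAT* rose 2.82-fold and 2.83-fold in the second period. The 2 called higher, *ACOT12* and *ACSM2B*, were well above background on 0 arrays, as *ACSM3* was.

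Of the genes by which propionate enters the tricarboxylic acid cycle, 4 of 7 were downregulated and 1 upregulated in the first period, and 6 of 7 upregulated and 1 downregulated in the second. *SUCLA2* and *SUCLG1*, subunits of succinyl-CoA ligase, changed by −1.02 and −0.52 and then by 1.08 and 0.84, and *MCEE*, the methylmalonyl-CoA epimerase, by −0.81 and then 1.29 (adjusted *P* of 0.00499 or lower, limma). Of the monocarboxylate carrier genes, 3 of 6 were called higher and 2 lower in the first period, then 1 and 3. Of all probes, 45.3% were called higher in the first and 44.8% lower in the second period. *BSG* fell 2.25-fold (adjusted *P* = 2.86e-05, limma) and rose 2.40-fold (adjusted *P* = 7.70e-06). The 3 called higher and then lower, *SLC16A4*, *SLC16A6* and *SLC16A7*, were well above background on 1 early array at most and on 0 middle or late arrays.

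**Figure D4:**
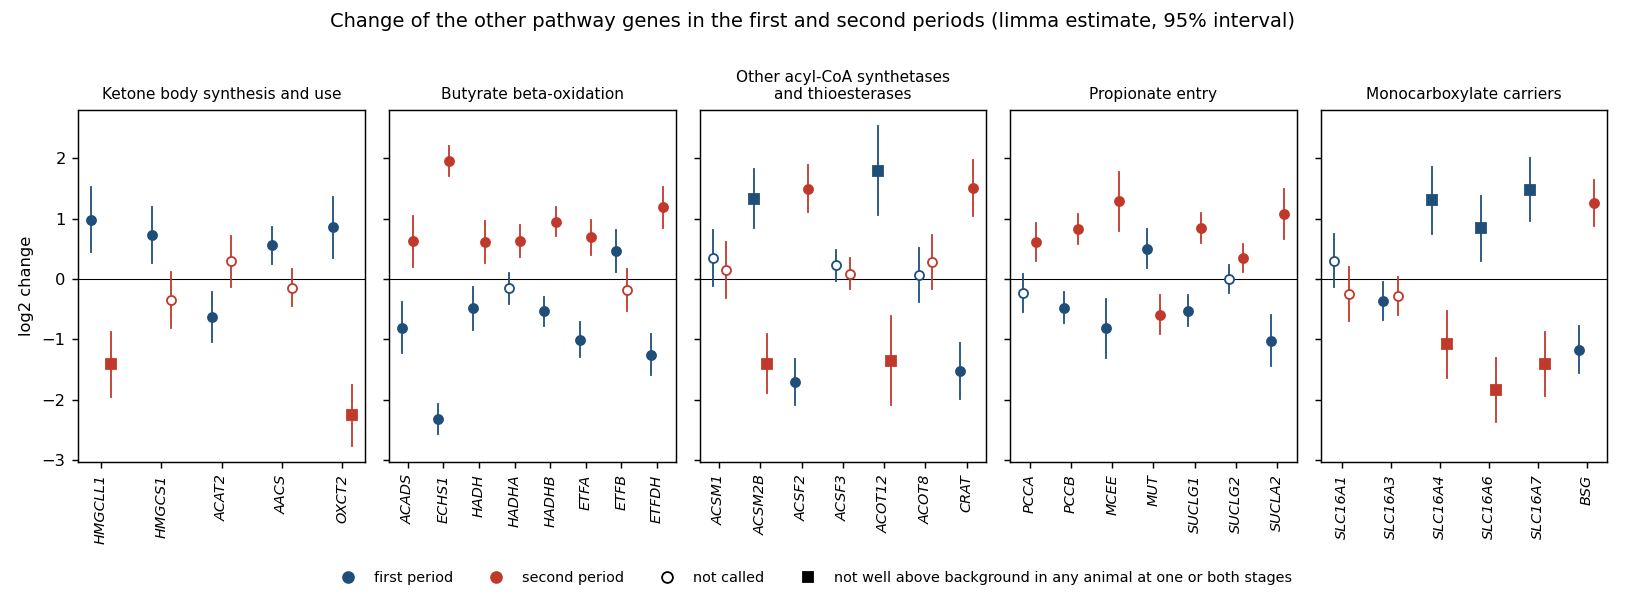
Change of 33 other pathway genes (y axis, log2 limma estimate with 95% interval) in the first (blue) and second (red) period by list, open where no DEG and square where 0 arrays of a compared stage were well above background. The beta-oxidation panel shows 6 filled blue points below 0 and 7 filled red points above it, and the blue squares lie above 0.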

How the data were processed

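The authors extracted RNA from RE biopsies, labeled it with cyanine 3 and scanned 27 one-color Agilent arrays. The deposited intensity is the Feature Extraction processed signal, on a linear scale after background subtraction (version 11.0.1.1 in the file headers, 9.5 in the labels). Flags of 0 or 1 for spots well above background, saturated or outlying are other values as deposited. A table of log2 values deposited by the authors holds, per array, log2 of that signal less roughly its 75th percentile (spread over probes at most 0.0287, column medians −3.07 to −2.60) and served as an alternative. Its direction and scale follow the scanner values and no centering of genes was found. No per-sample column was left unmapped (0).

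From these, log2 processed signal minus the array median was fitted with limma 3.58.1 (R 4.3.3, statmod 1.5.0). Spots flagged as outliers were missing, saturated spots were kept, and spots of 1 probe were averaged. The model had 1 mean per stage and 1 effect per animal, over 15008 probes. A gene with several probes was represented by the brightest. The numbers in the sample titles pair the arrays, because the same animals were biopsied at each stage. That a number marks the same animal at each stage was assumed. Deviations from stage means correlated by 0.158 on average over 27 same-animal pairs (−0.151 to 0.461, above 0 in 24) and by −0.02 between cattle. The 95% intervals are limma's. The procedure was tested on data simulated with independent noise and an animal effect. That simulation had no slide effect and no dim middle stage, so it cannot speak to either.

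The 8 genes, the pathway lists and the markers were chosen with earlier results of these data known. The text names every member, up to 3 of the largest DEGs per pathway list and comparison, and the 2 nearest genes of members well above background on all arrays. Results for 2 of the 35 pathway genes on the array are not reported here, though the counts over all 35 include them. Lists were ketone body synthesis and use, butyrate beta-oxidation, other acyl-CoA synthetases and thioesterases, propionate entry and monocarboxylate carriers. Besides the epithelium, smooth muscle and hepatocyte markers given above, counts of markers higher and lower in the first period were 2 and 1 of 8 for fibroblasts, 2 and 1 of 7 for endothelium, 2 and 1 of 10 for leukocytes and 3 and 0 of 5 for red blood cells, and in the second 1 and 5, 0 and 2, 3 and 3, and 0 and 2.

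Scaling was also done at the 75th percentile, by quantiles and after normexp (offset 50). Further alternatives were the deposited log2 table, outlier spots kept, removal of dim probes, no animal block, the slide as a block (random or fixed), scan day 1 or slide 2 by itself, the methods' t-test and each animal left out. Removal of the 3 arrays with under 60% of probes well above background was chosen after seeing the data.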

Additional observations from a re-analysis of the deposited data

Results flagged for a closer look

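In 24 groups of 9 arrays (8 genes at 3 stages), 3 had 1 array whose gap to the nearest other exceeded Dixon's 95% critical value, where chance flags about 1 group in 20. The early *BDH2* level of animal 9 was −1.13, above the next highest of −2.04. The early *OXCT1* level of animal 6 was −0.095, above the next highest of −0.992. The late *ACSS2* level of animal 1 was 5.53, above the next highest of 4.96. All 3 spots were well above background. Without animal 9, 6 or 1, respectively, the calls of the 3 genes in the first and second periods stood as with all 9 cattle.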

How the results depend on the processing

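Among the changes of single genes under alternatives, 409 kept direction and side of the threshold, 32 lost the call, 8 gained it and 22 changed sign. With no replicate block, so without pairing by animal, 5, 8 and 1 members were DEGs in the first, second and total periods, as with the animal as a block, and 24 of 24 changes kept their call. In the first period, members called numbered 3 with slide as a random block and 0 with slide as a fixed block or within slide 2 (limma; 1 at an unadjusted *P* below 0.05 in each), and other pathway genes called numbered 17, 1 and 0 (19, 4 and 6 unadjusted). Of about 15008 probes, 6830, 1268 and 7 were called in these settings. The median SE of all probes in the first period was 0.670 with slide as a fixed block, against 0.188 in the main fit. Within scan day 1 all 8 changes kept direction and side, but each within-animal difference there is also a difference between slides 1 and 2. In the second period 5 members were called without dim probes, of 5 tested, and 4 with slide as a random block. In the total period 2 were called with 75th percentile scaling or the deposited log2 values, both lower. Without the 3 dim arrays 2 were called, *ACSS2* higher and *BDH2* lower. None were called, 0 in each setting, with normexp (0 unadjusted) or with slide as a random block (1). Without dim probes 0 of 5 tested were called (1 unadjusted), but that removal had left out *BDH2*. When each animal was left out, 1 to 2 were called. Pathway genes called in the total period numbered 5 with quantile normalization, 1 with normexp, 0 with slide as a random block (4 unadjusted), 13 by the methods' t-test, 14 without dim arrays and 4 to 9 with 1 animal left out. Related pairs that differed, those with *ACSS3* included, numbered 1 to 3 in the first and 1 to 2 in the total period with 1 animal left out, and 0 in the total period with normexp. The cause of these shifts was not tested.

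Of the called changes of the 8 genes, those of *ACSS3* and *ACSM3* in the second period turned sign under an alternative. In the first period *BDH2* was −0.125 with quantile normalization, −0.653 with slide fixed and −0.776 within slide 2, *ACSS1* −0.782 and −0.717 in the latter settings, and *ACSS3* 0.179 with normexp. In the second, *ACSS3* was −0.181 with normexp and *ACSM3* 0.05 with quantile normalization. Both normexp changes of *ACSS3* in these periods were calls. In the total period *BDH1* was −0.0118 (75th percentile), −0.0144 (quantile) and −0.00844 (deposited log2), *ACAT1* −0.0542 (quantile), *OXCT1* 0.00169 (slide random), *ACSS3* −0.00177 (normexp) and −0.0348 (slide random), and *ACSM3* −0.0166 (75th percentile), −0.02 (normexp) and −0.0133 (deposited log2). With 1 animal left out, total-period changes ran from −0.0236 to 0.156 for *BDH1*, −0.141 to 0.0605 for *OXCT1*, −0.0632 to 0.29 for *ACSS3* and −0.0429 to 0.174 for *ACSM3*. The methods' t-test lost *ACAT1* in both periods (adjusted *P* = 0.101 and 0.064). With normexp the first-period changes of *BDH1*, *ACAT1* and *OXCT1* were −1.63, −1.21 and 0.403. Arrays have no read depth, and precision rests on 9 arrays a stage and on signal over background, lowest at the middle stage.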
